A study of Mus musculus with 24 samples.

Results

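The strongest burst of RNA between the late 1-cell (L1C) and the late 2-cell (L2C) stage of mouse embryos was carried by 244 of the 21974 protein-coding genes quantified here. A gene belonged to this set where its mean CPM, an estimated read count scaled to the total of its library, was at least 100 in the 3 L2C input libraries and at least 30 times the mean of both the MII oocyte inputs and the L1C inputs, with 0.1 added to every mean. The input levels of MII, L1C and L2C therefore chose the genes, and they are given below as a description without a test. Just inside the limit on the ratio stood *Mon1a* (30.2 times), *Sfi1* (30.3 times) and *Bambi* (30.3 times), and just outside it *Trmt61a* (29.9997 times), *D16Ertd472e* (29.9 times) and *LTO1* (29.9 times).

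SLIM-seq, an m6A RNA immunoprecipitation for small amounts of RNA, had been run on 18 libraries from B6D2F1 mice, with 3 IP libraries and 3 input libraries that skipped the antibody from each of MII oocytes, L1C embryos and L2C embryos. A further 6 libraries came from L2C embryos of the same strain: 3 from zygotes microinjected with Cas13d mRNA and crRNAs against the m6A reader *Ythdc1* (KD), and 3 from zygotes that received Cas13d mRNA without crRNAs (Ctrl), so every embryo of that experiment was injected and carried the nuclease. Oocytes came from superovulated 8-week-old females, embryos were cultured in vitro from the zygote on, and the number of embryos behind a library is not given in the sources used here. The question put to these genes was how much m6A antibody signal their RNA carried at L2C, and whether their RNA changed when *Ythdc1* was lowered.

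The mouse zygote starts life on RNA that the oocyte has stored. The embryo's own genome is switched on in a minor wave in the zygote and in a major wave at the 2-cell stage, and a set of genes next to MERVL retrotransposons is transcribed there for only a short time. m6A is laid on RNA during transcription and is read by YTH proteins, of which Ythdc1 is the nuclear one, with known roles in splicing, export and the handling of retrotransposon RNA.

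Because these genes rose together, the sequences in front of 6 of them are shown. *Alppl2* and *Exoc3l2* had the highest L2C input CPM, *Sesn2* is a stress gene with low IP signal, and *Usp17lb* and *Gm12790* were lower in KD. *Gm4565* had no count in any earlier input, although reads shared with the like gene *Gm4513* may have been given to that gene. Each line gives the 250 bases before the RefSeq start site (GRCm38.p6), 5′ to 3′ on the strand of the gene. Capitals mark TAATCC (the core bound by Otx-type homeodomain proteins), GGGCGG (the GC box bound by Sp1), CCAAT (bound by NF-Y), TATAAA (the TATA box) and CAAGGTCA (the core bound by Nr5a2 and Esrrb), on either strand.
Alppl2: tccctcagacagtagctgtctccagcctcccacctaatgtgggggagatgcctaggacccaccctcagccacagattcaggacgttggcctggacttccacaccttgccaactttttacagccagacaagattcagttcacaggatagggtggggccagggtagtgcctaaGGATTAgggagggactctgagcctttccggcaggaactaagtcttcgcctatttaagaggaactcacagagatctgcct
Exoc3l2: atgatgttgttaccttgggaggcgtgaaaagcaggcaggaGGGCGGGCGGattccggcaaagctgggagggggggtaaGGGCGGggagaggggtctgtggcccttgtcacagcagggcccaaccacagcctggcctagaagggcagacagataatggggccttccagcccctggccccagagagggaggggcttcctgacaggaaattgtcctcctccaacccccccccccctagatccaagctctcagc
Sesn2: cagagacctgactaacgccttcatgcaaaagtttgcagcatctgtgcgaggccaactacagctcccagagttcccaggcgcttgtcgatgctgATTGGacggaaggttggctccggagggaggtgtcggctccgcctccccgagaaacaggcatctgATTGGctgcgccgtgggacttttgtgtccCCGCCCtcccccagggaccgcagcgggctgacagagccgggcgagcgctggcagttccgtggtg
Usp17lb: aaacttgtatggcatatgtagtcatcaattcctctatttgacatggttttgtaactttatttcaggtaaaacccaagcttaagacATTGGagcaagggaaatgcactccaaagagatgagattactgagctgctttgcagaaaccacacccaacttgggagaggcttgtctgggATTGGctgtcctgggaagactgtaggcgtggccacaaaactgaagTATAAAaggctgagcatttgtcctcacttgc
Gm12790: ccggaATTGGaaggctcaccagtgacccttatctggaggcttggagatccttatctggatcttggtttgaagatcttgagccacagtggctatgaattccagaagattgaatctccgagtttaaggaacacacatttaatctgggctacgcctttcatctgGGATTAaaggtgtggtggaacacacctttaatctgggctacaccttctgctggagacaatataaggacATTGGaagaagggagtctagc
Gm4565: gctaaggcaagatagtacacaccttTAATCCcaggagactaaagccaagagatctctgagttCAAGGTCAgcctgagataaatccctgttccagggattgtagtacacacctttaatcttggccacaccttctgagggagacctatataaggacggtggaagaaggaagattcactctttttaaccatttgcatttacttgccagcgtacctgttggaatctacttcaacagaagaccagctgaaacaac
The *Alppl2* promoter (chr1:87089929-87090178, minus strand) held TAATCC on the other strand, 79 bases before the start. *Exoc3l2* (chr7:19463037-19463286, plus strand) held 3 GC boxes, 2 of which overlap, and none of the other letters. *Sesn2* (chr4:132510457-132510706, minus strand) held 2 CCAAT boxes and a GC box within the last 157 bases. *Usp17lb* (chr7:104842584-104842833, minus strand) is the one of the 6 with a TATA box, 31 bases before the start, and it also held 2 CCAAT boxes. *Gm12790* (chr4:101975106-101975355, minus strand, a RefSeq start inside the longer GENCODE gene) held 2 CCAAT boxes and TAATCC, and *Gm4565* (chr7:22588128-22588377, minus strand) held TAATCC and CAAGGTCA.

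Over the whole set, 189 of the 244 genes had a promoter in the RefSeq table, taken here from 250 bases before to 50 bases after the first listed start. GGGCGG was present in 124 of them (65.6%), against 35.7% of all 32851 promoters and 67.8% of those of genes with at least 100 CPM at L2C. CCAAT was found in 65 (34.4%, against 37.4% of all promoters and 43.2% of highly expressed genes), and TATAAA in 11 (5.82%, against 13.6% and 6.39%). TAATCC stood in 20 (10.6%, against 7.06% and 6.64%), among them *Alppl2*, *Cul3*, *Fbxo6*, *Guca1a*, *Prps1* and *Trim43a*. CAAGGTCA stood in 5 (2.65%, against 1.56% and 0.869%), in front of *Amhr2*, *Gm4513*, *Gm4565*, *Gpr161* and *Tmem191c*. The core bound by Dux and the heat shock element, searched on both strands like the others, were in none of the 189 windows, and in 0.0335% and 0.603% of all promoters. A match of letters is a description of the window and not a bound site. The median promoter of the set held 20 CG dinucleotides, against 22 for 399 moderate 2-cell genes (at least 100 CPM and 5 times both earlier stages, but outside the set) and 7 for all promoters.

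Before L2C the RNA of these genes was scarce. Mean input CPM at MII ran from 0 to 25.2 with a median of 1.18 over the 244 genes, and at L1C from 0 to 37.3 with a median of 2.32. At L2C the means ran from 100.6 to 3960, with a median of 207. The smaller of each gene's ratios to the earlier stages had a median of 73.8, and it was at least 100 for 99 genes and at least 300 for 24. Together the set held 0.0569% to 0.0586% of the counts of an MII input, 0.0762% to 0.0861% of an L1C input and 7.43% to 7.83% of an L2C input. A CPM is a share of its library, so a change in the RNA of a whole embryo is not seen in it, and fewer expressing embryos in a pool cannot be told apart from less RNA per embryo. Markers of other cells and stages did not move alike. The 11 cumulus cell markers summed to 14.6 to 15.7 CPM in the L1C inputs and 268 to 284 CPM in the L2C inputs. The member *Amhr2*, chosen by the rule for its rise, held 262 to 277 CPM of the latter. This sum therefore does not show a rise of the other listed genes. The 7 blood markers summed to 1.21 to 1.74 CPM and 18.0 to 20.3 CPM, with Hbb-bs and Hbb-bt at 0 in both. The 8 blastocyst markers summed to 47.6 to 54.6 CPM in the L1C inputs and 10.9 to 12.2 CPM in the L2C inputs. The part of these markers in the rise was not tested.

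The levels at MII and L1C, which the rule also used, are given as a description. The mean was higher at L1C than at MII for 180 genes, and for 128 all 3 L1C inputs lay above all 3 MII inputs (against 28.3% of the 21974 protein-coding genes), whereas for 25 all L1C inputs lay below (against 20.8%). *Usp17lb*, a deubiquitinase of a multicopy family, had 0.247, 0.190 and 0.215 CPM in the MII inputs and 13.6, 11.5 and 12.8 CPM in the L1C inputs. *Ccne1*, the cyclin E1 that drives entry into S phase, went the other way with 19.8, 19.1 and 19.6 CPM at MII and 10.5, 11.6 and 12.6 CPM at L1C. The groups did not overlap for either gene. There were 41 genes under 1 CPM at both stages, and *Gm4565* had no count in any of the 6 earlier inputs. The member *Gm4513* has the same transcript length (1438 bases) and G+C content (49.0%) as *Gm4565*. Reads shared by these genes may have been given to either, and how they were divided was not tested.

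**Figure D1:**
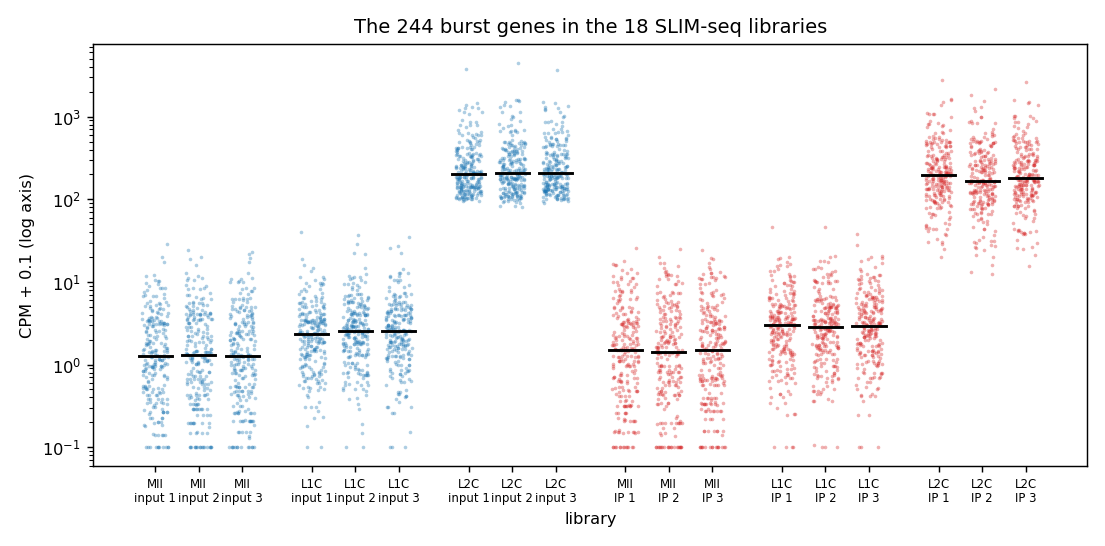
CPM (log axis, 0.1 added) of the 244 burst genes in each of the 18 SLIM-seq libraries, with a point per gene, a line at the median, and inputs in blue and IPs in red. Median levels were 2.75 to 2.88 CPM in the L1C IP libraries, 165 to 195 CPM in the L2C IP libraries and 201 to 206 CPM in the L2C inputs.

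The replicates of a stage lay close together beside this step, with a median coefficient of variation of 8.16% over the set in the 3 L2C inputs. *Alppl2* (chr1:87086694-87089928), a placental-like alkaline phosphatase of the cell surface, had 3819, 4432 and 3629 CPM in the L2C inputs (3960 ± 419, SD, n = 3) against 3.61, 5.43 and 3.92 CPM in the L1C inputs. *Exoc3l2* (chr7:19463331-19496762), a relative of an exocyst subunit, had 1481, 1581 and 1486 CPM against 1.17, 0.887 and 0.685 CPM. *Prps1* (chrX:140456613-140476140), which makes the phosphoribosyl donor of nucleotide synthesis, had 1313, 927 and 1333 CPM against 6.66, 5.60 and 4.90 CPM. These are levels per library that are not divided by gene length, so they order genes by their share of the reads and not by molecules.

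The other genes among the 12 with the most L2C input reads cover metabolism, chromatin, translation and the cell cycle. *Pdxk* is the pyridoxal kinase of vitamin B6 metabolism, *Ptdss2* a phosphatidylserine synthase, *Mta2* a subunit of the NuRD chromatin remodeller, *Sesn2* a stress-induced inhibitor of mTORC1, *Rpl41* a protein of the large ribosomal subunit, *Sfi1* a centrosomal partner of centrins, *Ficd* an enzyme that modifies the endoplasmic reticulum chaperone BiP, and *Ankrd10* an ankyrin repeat protein. On exons, where a division by length is possible, the set was ordered differently in the Ctrl embryos. *Rpl41* came first with 3859 as exon CPM per kilobase, followed by *Prps1* (1479), *Crxos* (1195), the metallothionein *Mt1* (1160), *Selenos* (1060) and *Nhp2* (894).

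**Figure D2:**
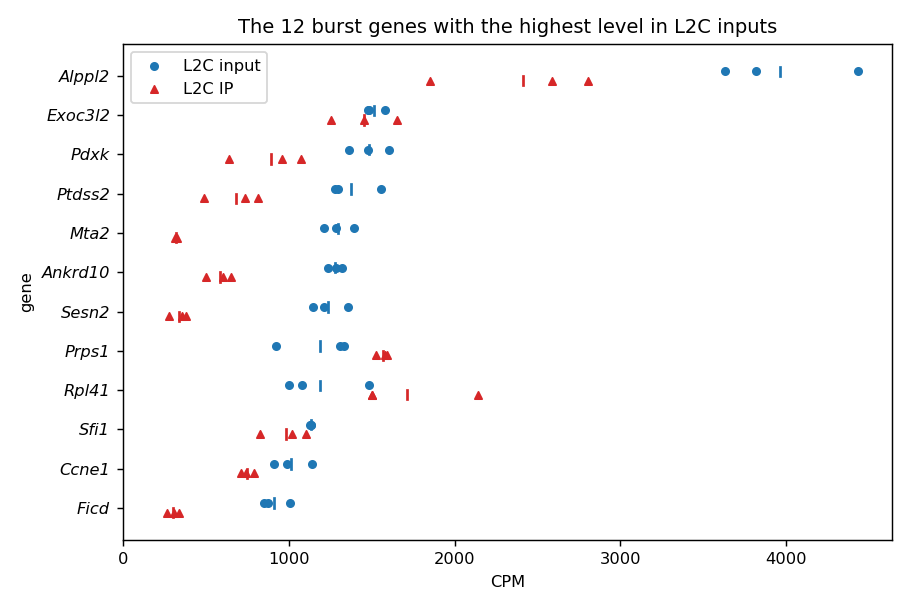
CPM in each L2C input and L2C IP library of the 12 burst genes with the highest L2C input CPM, on a linear axis from 0. Points are libraries and short lines are means; *Mta2* input libraries sit at 1213 to 1396 CPM and its IP libraries at 315 to 325 CPM, while *Prps1* and *Rpl41* have higher means in IP.

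The deposited span values and the exon counts do not measure the same reads. The SLIM-seq counts used whole gene spans with introns as targets, and the KD experiment counted reads on exons. The log2 ratio of L2C input span CPM to Ctrl exon CPM had a median of 1.59 over the set, 1.30 over the moderate 2-cell genes and 1.04 over all 2005 genes of at least 100 CPM, and it was above 0 for 189 of the 244. *Impdh1* had a span mean of 357 CPM and an exon mean of 6.76 CPM, and *Socs3* 549 and 12.3 CPM. *Crxos* (233 and 3531 CPM) and *Cul3* (107 and 756 CPM) lay on the other side. Embryos and injection also differ between the experiments, and their part in these ratios was not tested.

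For a few genes hardly any exon reads were found. *Yy2* lies in the span of *Mbtps2* and had 448 CPM in the L2C inputs and no exon count in any of the 6 KD and Ctrl libraries. *Gm10964* had 101 span CPM and no exon count in Ctrl, *Zfp697* 134 and 0.0746 CPM, and *Gm16513* 278 and 0.436 CPM. *Tdpoz5* and *Gm10697* carried identical values in every SLIM-seq library, as near-identical copies share reads. Spans of 66 members (27.0%) overlap another protein-coding gene, against 28.6% of the moderate 2-cell genes. In the Ctrl libraries 221 of the 244 genes reached 10 exon CPM, 109 reached 100, 7 stayed under 1, and the set held 5.48% to 5.78% of all exon counts.

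By function the set was broad, with 66 genes in at least 1 of 12 functional lists or 9 families defined by symbol and 178 in none. Ribosome biogenesis gave 8 members of 85 listed genes (*Bop1*, *Nhp2*, *Nle1*, *Nol11*, *Nop16*, *Nop2*, *Rrp9* and *Wdr74*), which process ribosomal RNA or build the subunits in the nucleolus. The list of 2-cell and MERVL-linked genes gave 6 of 53 (*Dppa4*, *Gm16513*, *Gm2016*, *Pramel7*, *Tdpoz5* and *Usp17lb*). Solute carriers gave 11 of 371 genes and zinc finger proteins 9 of 454. The lists of splicing factors, translation factors and proteasome or ubiquitin genes held no member, but they are partial: *Rbm5*, *Pabpn1*, *Gemin5* and *Cul3*, which act in RNA processing or in ubiquitin transfer, are in the set and not on them.

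The smaller groups were stress genes, the list of polyamine, nucleotide and redox metabolism, chromatin and signalling. Stress and p53 targets gave *Sesn2*, the pseudokinase *Trib3* and *Ei24*. The metabolism list gave *Impdh1* and *Ppat*, which catalyse steps of purine synthesis, and *Psat1*, an enzyme of serine synthesis. *Prps1*, also of nucleotide synthesis, is in the set and not on that list. Chromatin gave the heterochromatin protein *Cbx3* and the H3K4 demethylases *Kdm5a* and *Kdm5b*. Early transcription factors gave *Obox6* and the retinoic acid receptor *Rarg*, with *Obox8* added by its symbol. The tight junction protein *Cldn6*, the TWEAK receptor *Tnfrsf12a* and the endoplasmic reticulum co-chaperone *Dnajb9* were the single members of their lists.

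Most genes of the 2-cell list stayed outside the set, and the limits on level and ratio both mattered. Of the 47 listed genes that were not members, 12 failed only on the 100 CPM, 7 only on the 30-fold ratio and 28 on both, with a median ratio of 10.5 and a median L2C level of 45.2 CPM.

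The genes were shorter at the median than abundant genes in general, most of all in span. The median length of all exons joined was 3335.5 bases for the set, 3974 for the moderate 2-cell genes, 4378 for genes of at least 100 CPM and 3499 for all protein-coding genes. The median span with introns was 12713.5 bases, against 14829, 22132 and 17406.5, and the longest coding transcript had a median of 2597 bases in the 241 members that have one. The set had a median of 7 exons, against 9 for the moderate genes, 10 for genes of at least 100 CPM and 7 for all, and 15 members (6.15%) had a single exon, against 4.01%, 2.99% and 6.57%. Spans ranged from 482 bases for *Hist1h2ap* to 371352 bases for *Zfp697*, and exons from 120 bases for *Gm10964* to 21836 bases for *Mdn1*. The median G+C content of the longest coding transcript was 52.2%, against 51.4%, 49.7% and 49.1%, and the letters GGAC, the core of the usual m6A motif, occurred 4.41 times per kilobase, against 4.46, 4.05 and 3.94.

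Few members were neighbours, but their share was above that of the moderate 2-cell genes. The start of another member lay within 10000 bases for 12 of them (4.92%, against 2.51% for the moderate 2-cell genes), in 6 pairs. The pairs were *Tnfrsf12a* and *Cldn6*, *Coq4* and *Trub2*, *Uap1l1* and *Sapcd2*, *Rpl36al* and *Mgat2* (starts 74 bases apart, transcribed away from each other), the metallothioneins *Mt1* and *Mt2*, and *Gm12789* and *Gm12790*.

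The m6A signal at L2C was then compared with the input. IP/input is a ratio of antibody-bound to total RNA, and a gene above 0 on the log2 scale carried more antibody signal per RNA than the typical gene after TMM scaling. The L2C inputs also entered the rule for the set, so IP/input is not free of the values that chose it: a chance excess in these inputs lowers the ratio. At a BH-adjusted p under 0.05 in edgeR, 30 of the 244 genes were higher in IP (12.3%, against a background of 21.6% of 16163 protein-coding genes) and 127 were lower (52.0%, against 26.6%). Scaled to library size alone the split was 45 higher and 102 lower. The median log2 IP/input was -0.45, against -0.01 over all tested genes, -0.53 over the moderate 2-cell genes and -0.43 over all genes of at least 100 CPM. Of these 2005 abundant genes 1066 (53.2%) were lower, a share near that of the set. Library size alone moved the median of all genes to 0.24 and that of the set to -0.20, and the distance between them was -0.44 under both. The cumulus cell markers, again mostly *Amhr2*, summed to 88.6 to 119 CPM in the L2C IPs against 268 to 284 CPM in the inputs, and the blood markers to 22.3 to 23.0 CPM against 18.0 to 20.3 CPM. The part of these markers in the ratios was not tested.

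The 5 highest ratios were reached by 3 predicted genes, *Cul3* and *Dnajb9*. *Gm21762*, a predicted gene, had 104, 97.2 and 122 CPM in the inputs and 403, 374 and 396 CPM in the IPs, a log2 IP/input of 1.61 (SE 0.13, adjusted p = 2.139e-08). *Cul3*, the scaffold of a family of ubiquitin ligases, had 137, 82.5 and 101 CPM in the inputs and 321, 275 and 332 CPM in the IPs (1.28, SE 0.21). *Dnajb9* had 604, 357 and 441 CPM in the inputs and 878, 1305 and 1015 CPM in the IPs (0.93, SE 0.18). In each of these genes all IP libraries lay above all inputs. The predicted genes *Gm21731* (1.13) and *AC168977.1* (1.01, on an unplaced scaffold) complete the 5 highest.

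The 5 lowest ratios came from genes of different roles. *Socs3*, the feedback inhibitor of cytokine signalling through JAK and STAT, had 516, 598 and 534 CPM in the inputs and 60.5, 53.7 and 54.2 CPM in the IPs, a log2 IP/input of -3.54 (SE 0.20, adjusted p = 5.879e-10). *Sp6*, a zinc finger factor of the Sp family, had 113, 119 and 147 CPM against 19.9, 12.5 and 15.4 CPM (-3.23, SE 0.22). On exons *Sp6* had a mean of only 0.379 CPM in Ctrl, beside a span mean of 126 CPM in the L2C inputs. *Pheta1*, an endosomal protein, had 420, 452 and 472 CPM against 109, 66.3 and 81.8 CPM (-2.63). No IP library of these genes came near an input. *Chtf18*, a clamp loader subunit (-3.02), and *Gorasp1*, a Golgi stacking protein (-2.80), were also among the 5 lowest, and their spans overlap *Gng13* and *Wdr48* in that order.

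Among the 12 most read genes, 9 were lower in IP and none higher. Of genes of at least 100 CPM 53.2% were lower and 14.9% higher, and of all tested genes 26.6% and 21.6%. The 12 were ranked by L2C input CPM, the denominator of the ratio, so a chance excess there lowers it. *Alppl2* had 2806, 1851 and 2589 CPM in the IPs, a log2 IP/input of -0.96 (SE 0.17, adjusted p = 0.0001639). *Mta2* had 321, 315 and 325 CPM in the IPs (-2.27, SE 0.13), *Sesn2* 381, 276 and 359 CPM (-2.12) and *Ficd* 338, 267 and 311 CPM (-1.82). For these 4 genes the IP libraries lay below all inputs. *Exoc3l2* had 1651, 1258 and 1454 CPM in the IPs and overlapped its inputs (-0.31, adjusted p = 0.0974), and *Prps1* (0.14) and *Rpl41* (0.27) did not pass the test either. The call for *Sfi1* (-0.45) was lost without L2C IP replicate 2 (-0.33), the IP library with the fewest counts, and its span overlaps *Drg1*.

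**Figure D3:**
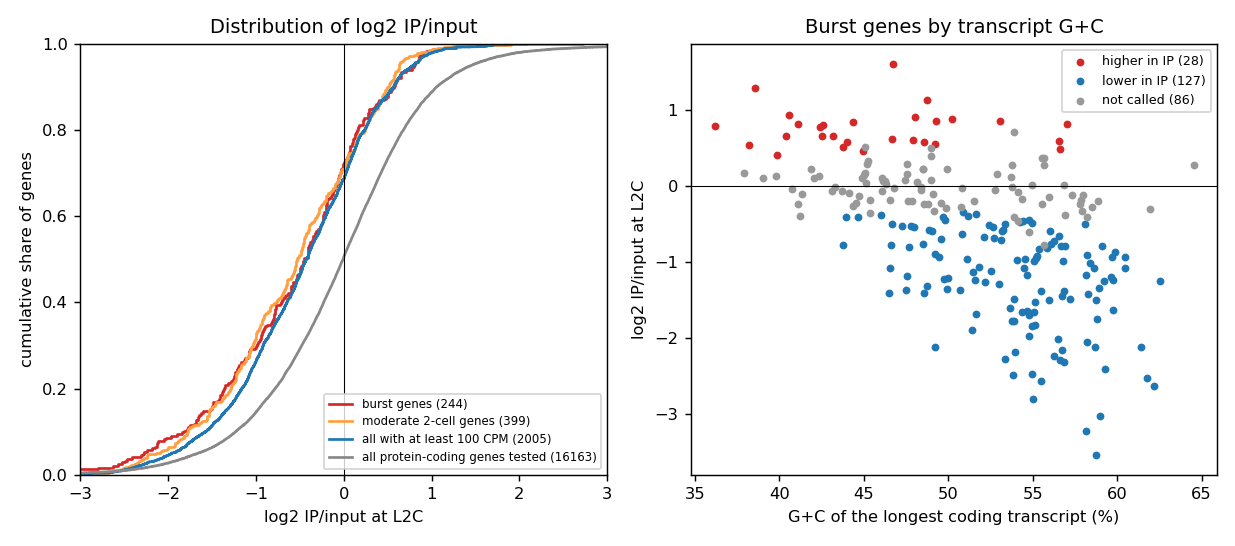
Left, cumulative share of genes by log2 IP/input at L2C for the 244 burst genes and the gene sets they are compared with; right, log2 IP/input of the burst genes against the G+C content of their longest coding transcript, with colours for higher, lower and not called. The curve of the burst genes lies with those of the other abundant genes and left of all genes, and the genes called lower sit toward high G+C.

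Within the set, IP/input went with base composition. Over the 241 members with a coding transcript, log2 IP/input and G+C content had a Spearman correlation of -0.56, close to the -0.57 of the moderate 2-cell genes and the -0.54 of genes of at least 100 CPM. All points share the same 6 libraries, and the correlation is a description. The 30 genes higher in IP had a median G+C content of 44.7% (over the 28 with a coding transcript) and 2332.5 bases of exon, and the 127 lower genes 54.7% and 4071 bases. The correlation was -0.35 with exon length, -0.08 with span, -0.37 with GGAC per kilobase and -0.06 with the longer GGACT. IP/input also fell with the span-to-exon ratio (-0.55, a value that shares the L2C inputs), whose median was 2.62 for the lower genes and -0.49 for the higher ones. What part introns, G+C content or methylation play in these ratios was not tested.

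By functional group, 8 of the 11 solute carriers were lower and none higher, from *Slc25a25* at -2.49 and the glutamine transporter *Slc1a5* at -2.02 to the thiamine transporter *Slc19a3* at 0.10, which did not pass the test. Of the 9 zinc finger genes 8 were lower and none higher. Over the whole families 61 of 320 tested solute carriers were higher and 99 lower, and 52 of 418 zinc finger genes were higher and 123 lower. Of the 8 ribosome biogenesis genes 5 were lower (*Nop2* at -1.84, *Nle1* at -1.63, *Bop1* at -1.42, *Rrp9* at -1.24 and *Wdr74* at -0.48), a share near that of the whole set, and the median was -0.86. Of the 17 predicted genes 8 were higher and 4 lower, with a median of 0.50, and of all 961 tested predicted genes 209 were higher and 110 lower. The 6 members of the 2-cell list gave *Gm2016* higher (0.54), *Usp17lb* lower (-0.45) and 4 that did not pass the test, and among the 52 tested genes of the whole list 29 were higher and 3 lower. The calls for *Gm2016*, *Usp17lb* and *Wdr74* were each lost when single libraries were left out. All of these rest on ratios that overlapping spans can share: without the 66 members that overlap another protein-coding gene, 24 of 178 were higher and 87 lower, with a median of -0.39.

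Between stages, the antibody-bound RNA rose with the RNA itself. All 244 genes were higher in the L2C IPs than in the L1C IPs (against a background of 39.7%), by 3.03 to 13.0 on the log2 scale with a median of 5.56, and every L2C IP library lay above every L1C IP library for each of them, as for 35.6% of all protein-coding genes. The largest adjusted p was 4.583e-07. The IP libraries did not choose the genes, but the inputs of the same stages did, and the moderate 2-cell genes gave 399 of 399 with a median of 3.05. This is a difference in IP level and not in IP/input. *Alppl2* had 4.60, 3.61 and 4.11 CPM in the L1C IPs, and *Cul3* 6.23, 6.05 and 6.56 CPM.

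The KD of *Ythdc1* is independent of the rule. *Ythdc1* itself had 498, 521 and 493 CPM in KD and 1114, 1138 and 1048 CPM in Ctrl (mean ± SD 504 ± 15.3 and 1100 ± 46.8, n = 3 each), with no overlap. In the 5 libraries its log2 change came to -0.99 (SE 0.08, adjusted p = 5.213e-08). The counts of KD replicate 3 stop on chromosome 7, so 112 of the 244 genes could be compared with 3 libraries on each side, in CPM scaled to the 25739 genes of that table. All genes were compared with 2 KD and 3 Ctrl libraries over the whole annotation. Markers of other cells and stages moved too. In the whole libraries, 11 cumulus cell markers summed to 36.7 to 40.7 CPM in KD and 29.1 to 35.3 CPM in Ctrl (1 higher and 1 lower of 3 tested), with *Fshr* and *Ptx3* at 0 in both. The 7 blood markers summed to 10.5 to 17.4 CPM in KD and 35.9 to 50.7 CPM in Ctrl (2 of 3 tested lower, median -1.23), with *Ptprc* and Hbb-bs at 0 in both, and 8 blastocyst markers summed to 13.0 to 16.9 CPM in KD and 8.69 to 11.0 CPM in Ctrl (3 higher and 2 lower of 5 tested, median 1.26). The part of these markers in the results was not tested. A list of 16 classical 2-cell transcripts summed to 555 to 609 CPM in KD and 1762 to 1803 CPM in Ctrl, with 14 of 16 lower, and 7 of 10 oocyte transcripts were lower too.

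Most burst genes that changed were higher in KD. With 3 against 3 libraries 107 of the 112 genes could be tested, and 67 were higher (62.6%, against a background of 35.6% of 5661 genes) and 14 lower (13.1%, against 36.5%), with a median log2 change of 0.30. With 2 against 3 libraries 237 could be tested, of which 137 were higher (57.8%, against 33.0% of 12919) and 30 lower (12.7%, against 35.0%), with a median of 0.29. The changes were small: at an unadjusted p under 0.05 and a log2 change above 1 in size, 25 were higher (against a background of 13.6%) and 11 lower (against 21.2%) in the 5 libraries. The moderate 2-cell genes moved alike, with 246 of 395 higher, 43 lower and a median of 0.35. Genes of at least 100 CPM lay nearer to the set than all genes did. Of 1958 tested, 928 were higher (47.4%) and 475 lower (24.3%), with a median of 0.20. With library size alone the medians of the set and of all genes were 0.17 and -0.14 in the 6 libraries, and the distance between them was 0.32 under both scalings. The 137 and 67 genes share the Ctrl and 2 KD libraries, and of the 107 genes in both fits 63 were higher in both, 11 lower in both and none moved in opposite directions.

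**Figure D4:**
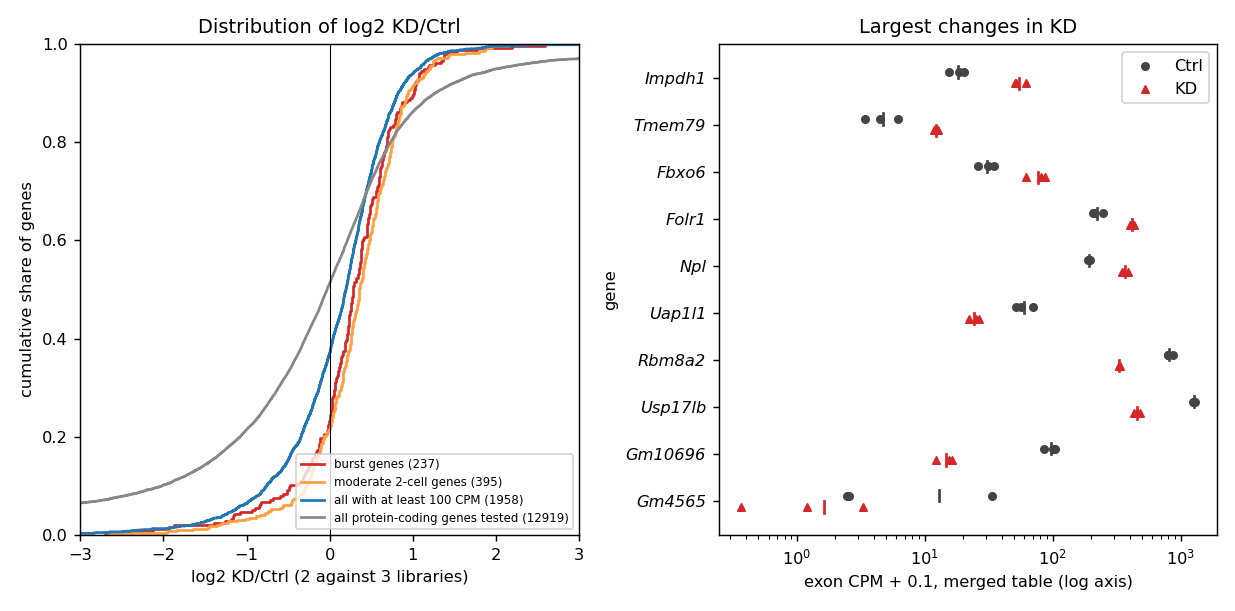
Left, cumulative share of genes by log2 KD/Ctrl in the fit of 2 KD against 3 Ctrl libraries for the burst genes and the sets they are compared with; right, exon CPM (log axis, 0.1 added) per library of the 5 largest rises and the 5 largest falls in KD with 3 libraries on each side. Fewer burst genes than genes in general lie below 0, and in the right panel the KD and Ctrl points overlap for *Gm4565* alone.

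The 5 largest rises came from genes of different roles. *Impdh1*, an enzyme of guanine nucleotide synthesis, had 51.0, 61.2 and 51.8 CPM in KD and 18.3, 15.5 and 20.1 CPM in Ctrl (log2 change 1.73, SE 0.14, adjusted p = 5.354e-09). *Fbxo6*, an F-box protein that recognises glycoproteins, had 61.9, 80.5 and 87.0 CPM against 34.8, 26.0 and 30.8 CPM (1.44). *Npl*, which cleaves sialic acid, had 347, 388 and 357 CPM against 191, 195 and 189 CPM (1.04). KD and Ctrl did not overlap in any of them. *Tmem79* (1.57, overlapping *Glmp*) and the folate receptor *Folr1* (1.05, overlapping *Anapc15*) were the other 2 of the 5 largest.

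Outside the merged table, *Socs3* had 50.8 and 55.3 CPM in KD and 11.5, 12.0 and 13.3 CPM in Ctrl, a log2 change of 2.19 (adjusted p = 7.661e-10). *Wdr45b*, a WD repeat protein of autophagy, had 127 and 147 CPM against 53.8, 52.5 and 54.3 CPM (1.43). *Dnaaf2*, an assembly factor of dynein arms, had 9.42 and 6.57 CPM against 1.38, 1.16 and 1.72 CPM (2.59), and its exons overlap predicted genes. All KD libraries stood above all Ctrl libraries for these 3 genes. The Ets factor *Spic* (1.14), *Nop9* (1.38), *Psat1* (1.03) and *Rpl41* (0.76) were also higher.

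The 5 largest falls began with a predicted gene. *Gm10696* had 15.5, 16.1 and 12.1 CPM in KD and 99.9, 104 and 85.8 CPM in Ctrl (log2 change -2.62, SE 0.14, adjusted p = 1.748e-11). *Usp17lb* had 455, 429 and 481 CPM against 1268, 1289 and 1238 CPM (-1.35, SE 0.06), and *Rbm8a2*, a copy of an exon junction complex gene, 338, 331 and 328 CPM against 795, 794 and 864 CPM (-1.17). *Uap1l1*, a relative of an enzyme of nucleotide sugar synthesis, had 21.9 to 26.2 CPM against 51.6 to 69.6 CPM (-1.16). The KD libraries of these 4 genes lay below every Ctrl library. *Gm4565* gave the largest fitted fall (-2.94, SE 0.85), but Ctrl replicate 2 held 163 of its counts against 13 and 8 in the other Ctrl libraries, KD and Ctrl overlapped, and without that library the change was -0.50 (adjusted p = 0.506).

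Outside the table *Gm2016*, of the 2-cell list, had 93.8 and 85.7 CPM in KD and 374, 370 and 335 CPM in Ctrl (-1.93, adjusted p = 4.154e-10). *Gm21731* had 101 and 116 CPM against 268, 261 and 294 CPM (-1.26). *Guca1a*, known as an activator of guanylate cyclase in photoreceptors, had 0.533 and 0.834 CPM against 3.45, 3.02 and 2.87 CPM (-2.12). The groups did not overlap in these genes. Reads that align to several places were not counted, so near-identical copies of a family keep only the reads that tell them apart.

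Of the 12 genes with the most L2C input reads, 8 were higher and 2 lower in KD in the 5 libraries. Genes of at least 100 CPM were higher in 47.4% and lower in 24.3% of cases, and all tested genes in 33.0% and 35.0%. *Alppl2* had 978, 1098 and 1005 CPM in KD and 731, 701 and 852 CPM in Ctrl (0.56), and *Exoc3l2* 846, 988 and 930 CPM against 673, 673 and 788 CPM (0.50). *Prps1* had 9033, 8386 and 8922 CPM against 8146, 8021 and 7336 CPM (0.29). Each of these 3 genes had all KD libraries above all Ctrl libraries. *Sesn2* (0.64) and *Ccne1* (0.28) were higher and *Ficd* lower (-0.50) with 6 libraries. With 5 libraries *Pdxk* (0.70), *Rpl41* (0.76) and *Ankrd10* (0.26) were higher and *Sfi1* lower (-0.51), while *Ptdss2* (0.02, adjusted p = 0.79) and *Mta2* (-0.16, adjusted p = 0.1187) did not pass the test.

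By functional group, again in the 5 libraries, ribosome biogenesis gave 3 higher of 8 members (*Nle1* at 1.00, *Wdr74* at 0.87 and *Nop2* at 0.28) and none lower, with a member median of 0.08 and a share near the 33.0% of all genes, and 61 of the 85 listed genes were higher and 2 lower. The list of polyamine, nucleotide and redox metabolism gave 3 of 3 members higher (*Impdh1*, *Psat1* and *Ppat* at 0.53). Of its 48 tested genes 25 were higher and 12 lower. Chromatin gave 3 of 3 (*Kdm5b* at 0.68, *Cbx3* at 0.45 and *Kdm5a* at 0.29), where 17 of 45 listed genes were higher and 14 lower. Both Obox members were higher (*Obox8* at 0.86 and *Obox6* at 0.26), and so were 6 of 11 solute carriers, with none lower, and 5 of 8 tested zinc finger genes, with *Zbtb5* (-1.19) and *Zbtb43* (-0.31) lower. The whole families had more lower than higher genes, with 4 of 7 Obox genes lower and 2 higher, 91 of 238 solute carriers lower and 68 higher, and 127 of 360 zinc finger genes lower and 107 higher. Of the stress genes *Sesn2* (0.69) and *Ei24* (0.26) were higher, and *Trib3* (-0.21, adjusted p = 0.09759) did not pass the test. With 6 libraries *Trib3* was lower (-0.24, adjusted p = 0.02826), a call lost without Ctrl replicate 1 or 3 or KD replicate 2 or 3 (-0.25 to -0.19). *Rarg* was higher (0.70), but not without KD replicate 2 (0.29), which leaves 1 KD library, assumed to vary like the Ctrl libraries. *Kdm5b* had 2267, 2297 and 2395 CPM in KD and 1538, 1522 and 1592 CPM in Ctrl. *Cldn6* was lower (-0.72) and its neighbour *Tnfrsf12a* higher (0.59), although their starts lie 1781 bases apart.

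The members of the 2-cell list were split in KD, and the count of predicted genes depended on the libraries used. Of the 5 tested members of the 2-cell list, *Gm2016* and *Usp17lb* were lower and *Dppa4* (0.48) and *Pramel7* (0.29) higher, and *Tdpoz5* did not pass the test (-0.60). Of the 43 tested listed genes outside the set 37 were lower and 3 higher, with a median of -1.46. Of the 14 tested predicted genes in the set 8 were lower and 4 higher, with a median of -0.59. With 6 libraries 10 could be tested, of which 4 were higher and 4 lower, with a median of -0.05. In the 5 libraries, of all 537 tested predicted genes 253 were lower and 121 higher. *Gm12789* (-0.84) and its neighbour *Gm12790* (-0.36) were both lower. *Gm4513* depended on the fit, with -1.88 in the 5 libraries and -0.30 (adjusted p = 0.6169) in the 6.

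Last, the IP/input at L2C was set beside the KD change. The ratio was taken over whole gene spans and the change over exons, so the reads behind them differ. Of the 30 members higher in IP, 13 were higher and 11 lower in KD, with a median of 0.11. Among all 2895 genes higher in IP and tested in KD, 944 were higher and 1113 lower in KD, and among the 56 such moderate 2-cell genes 35 were higher and 8 lower. Of the 125 tested members lower in IP, 73 were higher and 14 lower (median 0.34), and of the 82 not called in IP 51 were higher and 5 lower (median 0.30). The moderate 2-cell genes gave 135 higher and 20 lower of 227, and 76 higher and 15 lower of 112, in these classes. All genes gave 1307 higher and 1144 lower of 3748 (median 0.05), and 1938 higher and 2109 lower of 5954 (median -0.05). Among the 11 that were higher in IP and lower in KD were *Gm10696*, *Gm2016*, *Gm21731*, *Gm21762*, *Gm12789*, *Gm12790*, *Calml4* (-0.90) and the desaturase *Scd3* (-0.94). Across the 237 genes with both values the Spearman correlation was -0.12, a weak relation. *Spic* and *Obox8* were higher in IP (0.46 and 0.61) and higher in KD, and *Pkd1*, the polycystin gene, was lower in IP (-1.45) and lower in KD (-1.16), so single genes occupied every corner. Whether the share of falls differed between these classes was not tested.

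**Figure D5:**
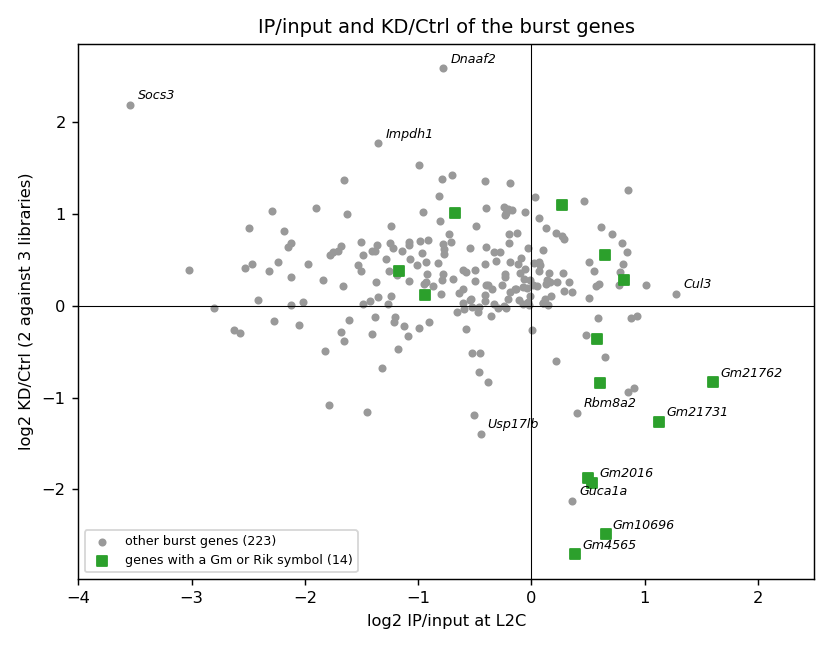
Log2 KD/Ctrl (2 against 3 libraries) against log2 IP/input at L2C for the 237 burst genes with both values, with genes of a Gm or Rik symbol as green squares and the other burst genes as grey points. Most points lie above 0 in KD, and the green squares include many of those that are higher in IP and lower in KD.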

How the data were processed

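SLIM-seq reads had been quantified by the authors in kallisto. The authors deposited expected counts, also called estimated counts, per gene, not scaled to library size, and TPM values of these runs. Every kallisto target has the length of a whole gene span (100.0% within 1 base), introns included. KD and Ctrl reads passed through Trimmomatic, Hisat2 and featureCounts 2.0.1 with Ensembl 99 (GRCm38), and the authors deposited the raw counts on exons, without regard to strand and without reads that align to several places. Because strand was not used in counting, overlapping genes on opposite strands cannot be told apart. The counts of KD replicate 3 end on chromosome 7, so the merged table holds 25739 of 55471 genes (46.4%).

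Total counts were 11107421 to 39739950 per SLIM-seq library, 3276715 to 5463868 in the merged KD table and 8696476 to 14500548 in the 5 whole KD and Ctrl libraries. Conditions were taken from the sample labels. The labels do not say that replicates came from separate animals or cultures, so p-values measure only the spread between these libraries.

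Estimated counts were rounded, and counts were fitted with edgeR 4.0.16 (R 4.3.3): TMM scaling, its filter on low counts, the quasi-likelihood test, and BH adjustment over all genes tested, with a threshold of 0.05. All 18 SLIM-seq libraries were fitted together, and KD and Ctrl in a fit of their own. DESeq2 1.42.0, library size alone, no filter, fewer libraries, a replicate block, other forms of the rule and leaving out each library were the alternatives. The fits were tested on simulated data. GENCODE M21 gave gene types, exons and spans for 55230 genes, and RefSeq (GRCm38.p6) the promoters. Python 3.11.15, pandas 2.3.3, scipy 1.17.1 and matplotlib 3.10.9 made tables and figures.

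The genes of the set and the gene lists were chosen with earlier results of these data known. Genes named with values were the 12 with the highest L2C input CPM, the 5 highest and 5 lowest log2 IP/input among those called, the 5 largest rises and falls in KD with 3 libraries a side and 3 each outside the merged table, the 3 nearest the limit on either side, members of a gene list, and *Ythdc1*. Others, such as *Yy2*, *Spic*, *Scd3*, *Pkd1* and *Gm4513*, were named after their values were seen.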

Additional observations from a re-analysis of the deposited data

How the results depend on the processing

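Sizes of the set came to 224 with 1 added to every mean, 249 with 0.01, 207 on TMM-scaled CPM, 316 at a ratio of 20, 172 at a ratio of 50 and 116 on the deposited TPM, of which 85 were shared, and leaving out 1 library gave 241 to 248. With library size alone the median log2 IP/input was -0.20 and the median log2 KD/Ctrl 0.17 (6 libraries) and 0.21 (5 libraries). The rule of the study, an unadjusted p under 0.05 with a log2 change above 1 in size, left 8 higher and 6 lower in KD with 6 libraries (against 13.8% and 19.6% of all genes) and 25 higher and 11 lower with 5 (against 13.6% and 21.2%). The median length was 12713.5 bases as span and 2597 as longest transcript. DESeq2 gave 31 higher and 133 lower in IP, 67 and 11 in KD, and 131 and 25 in the 5 libraries.

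Leaving out 1 library gave 25 to 30 genes higher and 110 to 127 lower in IP (median -0.53 to -0.38), 244 higher in L2C IP against L1C IP in each case, 61 to 71 higher and 12 to 14 lower in KD (median 0.28 to 0.32), and 113 to 139 higher and 26 to 30 lower in the 5 libraries (median 0.28 to 0.33), where leaving out a KD library leaves 1, assumed to vary like the Ctrl libraries. The paper states that the inputs were made from RNA of the same batches as the IPs. Deviations of same-numbered libraries had r from -0.15 to 0.046, which with so few libraries cannot exclude a pairing. With the replicate block the counts were 30 higher and 124 lower in IP, 68 and 14 in KD, and 141 and 30 in the 5 libraries. No call of a named gene changed sign under any of these alternatives. Counted over genes and alternatives, a call was lost in 27 cases for IP/input, in 9 for KD with 6 libraries and in 28 with 5. Levels under 10 exon CPM in Ctrl, as in 23 members, limit what the KD comparison can show.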
